A study of Mus musculus with 96 samples.

Results

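Transcripts of 10 genes that mark neurons of the thalamus were present at widely different levels in libraries made from mouse striatum. The genes were Slc17a6, Tcf7l2, Gbx2, Lhx9, Prkcd, Shox2, Rgs16, Ntng1, Lef1 and Tnnt1. They were chosen by symbol, through their Ensembl identifiers, from 39179 genes in the tables, and all 10 were found and passed the filter on low counts at both ages. The list was drawn up after earlier results of these libraries were known, so the levels of the 10 genes between groups are given as a description.

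The study sequenced mRNA from the striatum of C57BL/6 mice with 1 Htt allele replaced by a knock-in allele labelled Q20, Q50, Q92 or Q140, the length of its CAG repeat, and from wild-type mice. Mice were 6 or 10 months old, and there were 96 libraries in 12 groups of 8, with 4 females and 4 males per group, numbered F1 to F4 and M1 to M4. Wild types came from 2 housing cohorts, kept with Q20 mice or with Q50 mice, whereas Q92 and Q140 mice shared cages only with their own genotype and had no wild types of their own cohort. The labels do not say whether replicates were separate animals, so p-values measure the spread between these libraries, which may be technical.

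The thalamus lies behind and medial to the striatum and sends it a dense glutamatergic projection. Its relay neurons load glutamate into vesicles with the transporter encoded by Slc17a6, whereas the projection neurons that make up most of the striatum release GABA and carry dopamine receptors. In bulk tissue, fewer cells of a type and less RNA per cell cannot be told apart.

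Of the 10 genes, 5 encode transcription factors. Tcf7l2 and Lef1 are the DNA-binding partners of β-catenin in Wnt signalling and are both kept on in thalamic neurons, and Gbx2, Lhx9 and Shox2 are homeodomain proteins. Promoter windows of 250 bases before each annotated start were read from RefSeq on GRCm38.p6, where all 10 genes matched, with 16 windows among 32851 of all genes. The authors' own build is not given in the sources used here. Windows that hold CTTTGA, the core that the Tcf7l2 and Lef1 proteins recognise, or TAATTA, a homeodomain core, on either strand, are shown because 5 of the 10 genes encode proteins of these classes. Capitals mark the match, and TCAAAG is CTTTGA on the opposite strand. The CTTTGA core was in 3 of the 16 windows, against 13.8% of all windows, and TAATTA was in 1, against 4.84%. None of the printed windows holds both motifs. The sequences below run 5′ to 3′ on the strand of the gene.
Lef1, chr3:131156044-131156293, plus strand: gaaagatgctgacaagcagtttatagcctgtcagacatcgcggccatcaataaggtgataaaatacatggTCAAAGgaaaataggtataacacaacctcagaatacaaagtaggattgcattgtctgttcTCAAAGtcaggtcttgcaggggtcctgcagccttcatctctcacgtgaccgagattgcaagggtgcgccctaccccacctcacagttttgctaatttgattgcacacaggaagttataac
Prkcd, chr14:30626209-30626458, minus strand: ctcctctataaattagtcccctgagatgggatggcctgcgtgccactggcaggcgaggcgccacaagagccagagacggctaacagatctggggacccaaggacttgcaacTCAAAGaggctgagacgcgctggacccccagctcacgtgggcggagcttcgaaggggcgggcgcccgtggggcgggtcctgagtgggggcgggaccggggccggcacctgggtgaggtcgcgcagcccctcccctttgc
Shox2, chr3:66981772-66982021, minus strand: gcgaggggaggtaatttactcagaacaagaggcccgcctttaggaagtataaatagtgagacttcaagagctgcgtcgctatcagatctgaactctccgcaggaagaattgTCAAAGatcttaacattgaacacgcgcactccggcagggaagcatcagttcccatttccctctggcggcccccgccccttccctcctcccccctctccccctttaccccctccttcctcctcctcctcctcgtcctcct
Slc17a6, chr7:51624387-51624636, plus strand: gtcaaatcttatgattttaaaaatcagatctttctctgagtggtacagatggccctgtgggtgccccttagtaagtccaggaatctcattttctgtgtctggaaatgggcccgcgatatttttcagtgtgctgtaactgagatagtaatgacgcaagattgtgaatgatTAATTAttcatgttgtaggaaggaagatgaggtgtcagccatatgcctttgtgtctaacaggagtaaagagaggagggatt
Lef1 and Prkcd each held CTTTGA in only 1 of their annotated windows, and Slc17a6 held TAATTA in only 1. A match describes these letters and is neither a binding site nor a cause of any level given here.

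Library totals ran from 29.1 to 40.2 M expected counts. Markers of the labelled tissue were high in every library. Mean log2 CPM of 29 listed striatal projection neuron genes was never below 8.11 at 6 months or 7.02 at 10 months. CPM is the count scaled to a common library total with TMM factors. By lists and a limit chosen in part after the data were seen, 8 libraries stood apart for markers of other tissue, by over 10 median absolute deviations above the median of their age. They were Q50 F1 at 10 months for habenula genes, Q20 F4 at 10 months for midbrain dopamine neuron genes, wild-type Q50-cohort F3 at both ages and Q50 M4 at 10 months for liver genes, and Q20 F4, Q50 M3 and wild-type Q50-cohort F2 at 6 months for pituitary genes. The counts of called thalamus genes and the correlations with markers of other tissue are also given without them.

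Slc17a6 varied over the widest range of the 8 genes that had more than a few counts in every library. Its level ran from 1.98 CPM in Q50 F3 to 117 CPM in Q20 F3 at 6 months, a 58.7-fold range, with a median of 26.8 CPM over 48 libraries. At 10 months it ran from 2.41 CPM in Q140 M3 to 256 CPM in Q20 M4, a 106-fold range, around a median of 37.3 CPM. Prkcd, which encodes the delta isoform of protein kinase C, ran from 11 to 329 CPM at 6 months, a 29.9-fold range, and from 11.5 to 647 CPM at 10 months, a 56.4-fold range.

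Among the transcription factors, Tcf7l2 ran from 3.96 to 53.1 CPM at 6 months and from 4.19 to 123 CPM at 10 months. Shox2 ran from 0.0574 CPM, 2 counts in wild-type Q50-cohort M3, to 38.1 CPM, 1392 counts in Q20 F3, at 6 months. Lhx9 had 1 count in the same wild-type library and 310 counts in Q20 F3. No fold is given for these 2 genes because so few counts leave the lower value imprecise. Gbx2 was scarce throughout, from 0.540 to 4.08 CPM at 6 months and from 0.610 to 7.70 CPM at 10 months. Lef1 had the narrowest range at both ages, 4.36-fold at 6 months and 8.19-fold at 10 months.

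The remaining 3 genes encode proteins of other kinds. Ntng1, which encodes netrin-G1, a membrane-anchored axonal adhesion protein, ran from 8.32 to 91.1 CPM at 6 months and from 9.65 to 223 CPM at 10 months. Rgs16, which encodes a GTPase-activating regulator of G-protein signalling, ran from 2.99 to 50.2 CPM and from 3.10 to 117 CPM. Tnnt1, which encodes slow skeletal troponin T, ran from 1.42 to 28.5 CPM and from 1.09 to 66.4 CPM, the latter a 60.8-fold range. The same libraries were at the top for gene after gene. Q20 M4 was highest for all 10 genes at 10 months, and at 6 months Q20 F3 was highest for 7 genes and Q140 M1 for Prkcd, Rgs16 and Tnnt1.

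Levels of different genes were compared per length, as the authors' FPKM. The median FPKM over 48 libraries at 6 months was 30.4 for Prkcd, 7.22 for Ntng1, 6.17 for Slc17a6, 6.11 for Tnnt1, 5.13 for Rgs16, 4.22 for Tcf7l2, 2.82 for Lef1, 2.59 for Shox2, 0.313 for Lhx9 and 0.307 for Gbx2. At 10 months the order was the same except that Shox2, at 4.63 FPKM, stood above Lef1, at 3.39 FPKM. Neighbours in this order overlapped in their ranges, and each gene's own range between libraries was wider than the step to its neighbour.

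**Figure D1:**
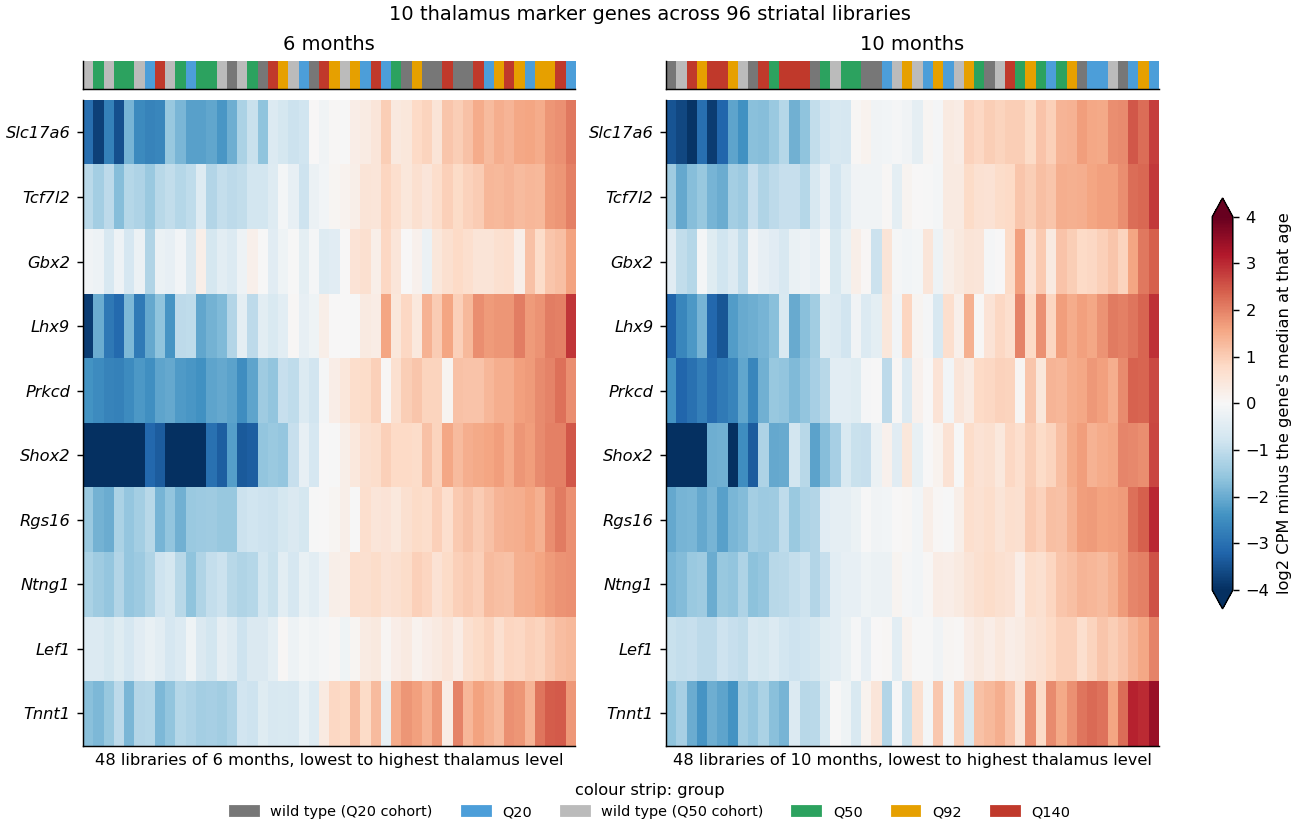
Heat map of the 10 thalamus genes (rows) over 48 libraries of 6 months and 48 of 10 months (columns, from the lowest to the highest mean of the 10 genes), coloured by log2 CPM minus the gene's median at that age, with a strip that marks the group. Most genes pass from blue to red in the same columns, Shox2 over the widest span and Gbx2 and Lef1 over a narrow one, and the blue end at 6 months is mostly Q50 and Q50-cohort wild-type libraries.

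The 10 genes moved together. With the means of groups and sexes taken out, Pearson correlations of log2 CPM over the 96 libraries ran from 0.71 for Gbx2 with Shox2 to 0.97 for Rgs16 with Ntng1 in the 45 pairs, with a median of 0.92. The values of a library share its depth and scaling, and the list was drawn up with these libraries in view, so the correlations are a description. The median was 0.91 at 6 months alone, 0.93 at 10 months alone, 0.93 by Spearman's rho, and 0.91 without the 2 libraries farthest from the median level. Leaving Gbx2 out, the lowest of the 36 pairs was 0.83, for Lhx9 with Tnnt1.

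Each gene was also set against the mean log2 CPM of the other nine. The correlation over 96 libraries was 0.98 for Rgs16, Ntng1 and Tcf7l2, 0.97 for Prkcd, 0.96 for Slc17a6, 0.93 for Lhx9, Lef1 and Shox2, 0.93 for Tnnt1 and 0.82 for Gbx2. Within single groups of 8 libraries it was never below 0.62, the value of Gbx2 in its lowest group, and reached 0.998 for Rgs16. The genes therefore rose in the same libraries, but not by the same amount. A doubling of the mean of the other nine went with a slope of 1.89 log2 units for Shox2 at 6 months and 1.57 at 10 months. The slope was 1.28 and 1.27 for Slc17a6, 1.27 and 1.21 for Prkcd, and 1.19 and 1.15 for Lhx9. Rgs16, at 0.96 at both ages, and Tnnt1, at 1.03 and 1.15, stayed near 1. Tcf7l2 had 0.80 and 0.88, Ntng1 had 0.81 and 0.83, Gbx2 had 0.43 and 0.46, and Lef1 had 0.38 and 0.50. The log2 ratio of Tcf7l2 to Ntng1 varied least between libraries, with an SD of 0.29, and that of Gbx2 to Shox2 most, with an SD of 1.93.

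**Figure D2:**
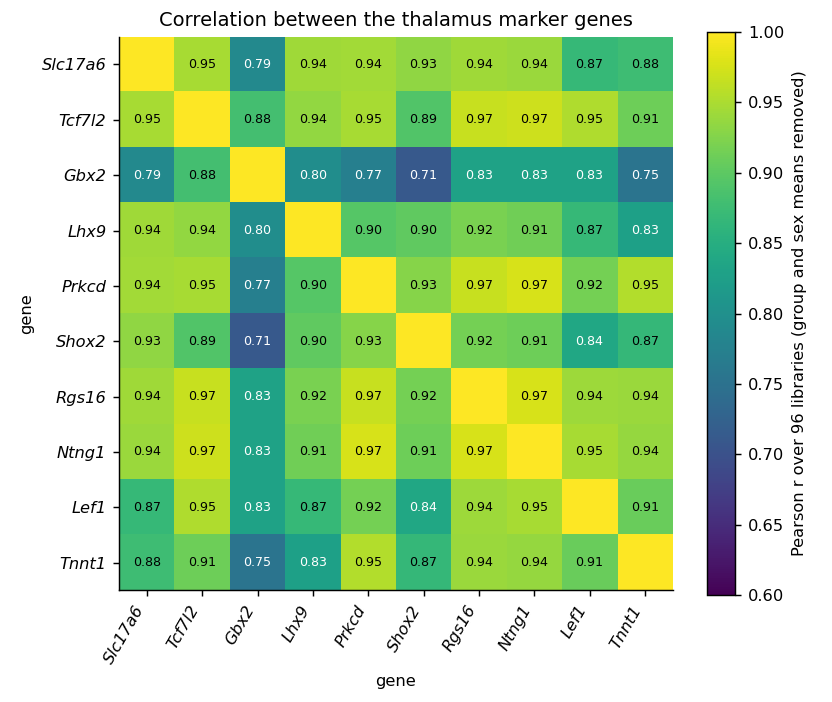
Pearson correlation of log2 CPM between each pair of the 10 thalamus genes over 96 libraries, with group and sex means removed. Rows and columns are the genes, and the darkest row is that of Gbx2, whose pair with Shox2 is the lowest at 0.71.

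The mean log2 CPM of the 10 genes is called the thalamus level here. At 6 months the Q50-cohort wild types had a level of 1.05 at the lowest, 1.64 at the median and 3.37 at the highest. The Q50 mice housed with them had 1.08, 1.61 and 3.80. The Q20-cohort wild types had 1.84, 3.92 and 4.26, and the Q20 mice housed with them had 1.51, 3.77 and 5.15. At the same age Q92 mice had 2.63, 4.19 and 4.95, and Q140 mice had 1.59, 3.89 and 5.04. Both groups of the Q50 cohort thus had medians more than 2 log2 units below those of the other 4 groups, although the ranges of all 6 groups overlapped.

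At 10 months the order of the medians was different. The 2 wild-type groups were close, with 1.36, 3.45 and 5.36 in the Q20 cohort and 1.39, 3.56 and 5.16 in the Q50 cohort. Q20 mice stood highest, with 3.48 at the lowest, 4.88 at the median and 6.35 at the highest. Q92 mice had 1.44, 3.95 and 5.84, and Q50 mice had 2.34, 3.80 and 4.92. Q140 mice stood lowest, with 1.40, 2.38 and 4.38, and again the ranges of all 6 groups overlapped. Group held 45.9% of the sum of squares of the level at 6 months and 28.7% at 10 months, and sex held 0.5% and 0.0%.

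**Figure D3:**
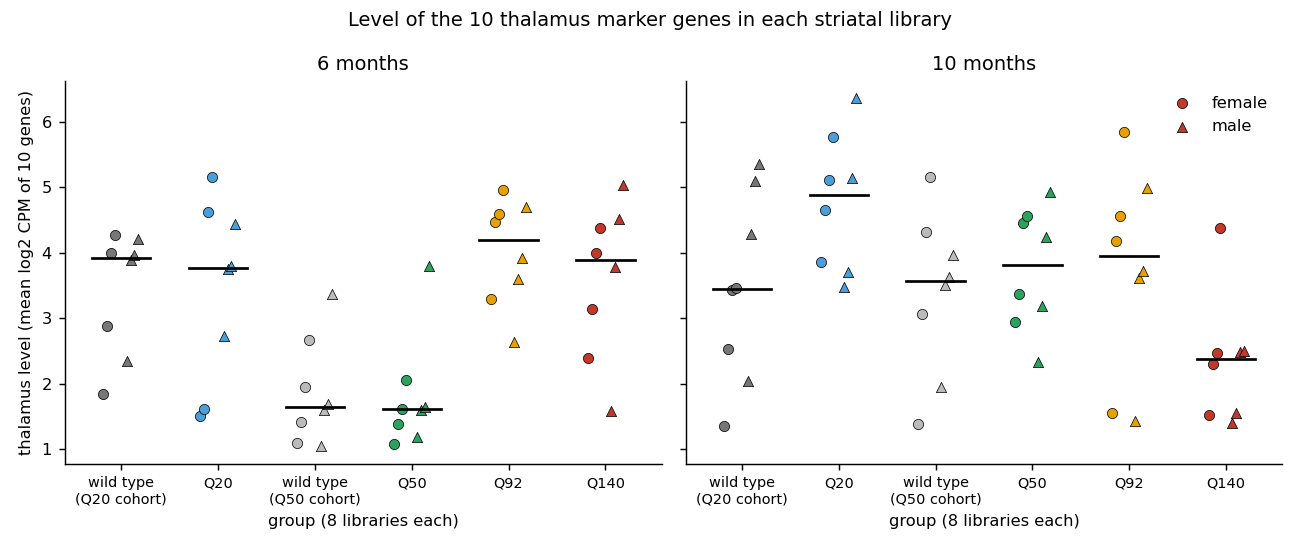
Thalamus level (mean log2 CPM of 10 genes) of each library by group at 6 and 10 months; circles are female and triangles male libraries, and bars are group medians of 8. The 2 groups of the Q50 cohort sit at medians of 1.61 and 1.64 at 6 months, and Q140 sits lowest at 10 months with a median of 2.38.

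Single genes showed the same layout. Slc17a6 at 6 months had a lowest, median and highest value of 3.27, 7.34 and 26.7 CPM in the Q50-cohort wild types and 6.85, 37.4 and 59.99 CPM in the Q20-cohort wild types. It had 16.4, 60.3 and 91.9 CPM in Q92 mice and 4.34, 47.6 and 94.4 CPM in Q140 mice. Q50 mice had 1.98, 6.83 and 35.2 CPM, and Q20 mice had 4.12, 43.7 and 117 CPM. All 6 groups overlapped, and every group except Q92 had at least 1 library under 7 CPM.

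Slc17a6 at 10 months was lowest in Q140 mice, at 2.41, 10.6 and 73.1 CPM. The wild types had 3.38, 37.4 and 139.6 CPM in the Q20 cohort and 2.92, 32.7 and 136 CPM in the Q50 cohort. Q20 mice had 34.7, 89.0 and 256 CPM. The lowest Q20 library thus stood below the median of the Q20-cohort wild types, which shared its housing. It stood above the median of the Q50-cohort wild types and above 7 of the 8 Q140 libraries.

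Prkcd separated the 6-month wild-type cohorts in the same direction. It had 11.4, 16.04 and 99.0 CPM in the Q50 cohort and 16.5, 135 and 162 CPM in the Q20 cohort, so the ranges overlapped. Q92 mice had 38.1, 177 and 288 CPM, and Q140 mice had 16.8, 109 and 329 CPM. At 10 months the Prkcd median was 28.8 CPM in Q140 mice, 101 CPM in Q20-cohort and 111 CPM in Q50-cohort wild types, and 294 CPM in Q20 mice.

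Shox2 was nearly silent in part of the libraries. Its median at 6 months was 0.477 CPM in the Q50-cohort wild types and 0.295 CPM in Q50 mice, against 12.1 CPM in the Q20-cohort wild types, 11.8 CPM in Q20 mice, 16.5 CPM in Q92 mice and 15.1 CPM in Q140 mice. At 10 months its median was 4.15 CPM in Q140 mice and 27.5 CPM in Q20 mice. In each of these groups the highest library was above 7.9 CPM.

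The group comparisons were fitted over all genes with the quasi-likelihood test of edgeR, and a gene was called at a Benjamini-Hochberg adjusted p under 0.05. At 6 months 6 of the 10 genes were called higher in Q92 mice than in the mean of both wild-type groups, where 5.44% of 17339 genes were called in either direction. They were Ntng1 (log2 fold change 1.30 ± 0.35 SE), Lef1 (0.70 ± 0.20), Prkcd (1.78 ± 0.51), Tcf7l2 (1.16 ± 0.35), Slc17a6 (1.58 ± 0.49) and Tnnt1 (1.43 ± 0.44), with adjusted p from 0.0235 to 0.0474 in the edgeR fit. In Q140 mice 4 genes were called higher, Slc17a6, Tcf7l2, Lhx9 and Lef1, where 23.7% of all genes were called. All 10 genes had estimates above 0 in both comparisons, with medians of 1.37 for Q92 and 0.98 for Q140 on the log2 scale.

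These counts rested on which wild types were used. Against the Q20-cohort wild types alone, 0 of the 10 genes were called for Q92 and 0 for Q140, and against the Q50-cohort wild types alone 9 were called for each. Without the libraries that stood apart, 1 was called for Q92 and 2 for Q140. Leaving out single libraries moved the Q92 count between 0 and 9 and the Q140 count between 0 and 8. The Q92 count was 0 without Q92 F2, F3, F4 or M1, and the Q140 count was 0 without Q140 M1. The share of all genes called was not counted in these refits. The shares given above belong to the fits of all libraries against both wild-type groups, so these counts cannot be set beside them.

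The wild-type cohorts at 6 months differed by a median of 1.65 log2 units over the 10 genes, higher in the Q20 cohort for all 10, from 0.45 for Gbx2 to 2.59 for Shox2. edgeR called 0 of the 10 genes and 0% of all genes in this comparison. At an unadjusted p under 0.05 there were 9 of the 10 genes and 2574 of all genes, DESeq2 called 1 of the 10, and limma on FPKM called 0. Neither of these groups carries a knock-in allele. The Q92 and Q140 estimates are against the mean of both wild-type groups, so their sizes cannot be set beside this one. Housing with Q20 or Q50 mice and any other difference between the cohorts cannot be told apart.

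Q20 and Q50 mice were set against the wild types that shared their housing. At 6 months 0 genes were called by edgeR, DESeq2 or limma in either, and 0 had an unadjusted p under 0.05, where 0.0231% of all genes were called for Q20 and 0.0634% for Q50. Q92 mice, with no wild types of their own housing, were set against the mean of both wild-type groups. At 10 months 0 of the 10 were called by any of these tools for Q20, Q50 or Q92. The unadjusted p was under 0.05 for 2 genes in Q20 mice and for 0 in Q50 and Q92 mice, and 0.0405%, 0.0636% and 0.422% of all genes were called. The median estimate was 1.03 log2 units in Q20 mice and 0.23 in Q50 mice. For Q92 mice, against the mean of both wild-type groups, it was 0.46. A fit with the L token of the library name as a term, chosen after seeing the data, called 6 of the 10 genes higher in Q20 mice at 10 months. The tokens were uneven over the groups of that age. L36 was that of 1 library, Q20 M3, and L4 that of Q20 F3, M1 and M2 and Q140 F3. The token and the Q20 group are thus partly tied in this fit. The share of all genes called was not counted in it, and the 0.0405% is from the fit without the token. Between the wild-type cohorts at 10 months 0 of the 10 were called by any of these tools and 0 had an unadjusted p under 0.05, where 0.347% of all genes were called, and the median estimate was 0.31 log2 units.

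In Q140 mice at 10 months all 10 estimates were below 0, from -0.36 for Gbx2 to -1.69 for Lhx9, with a median of -1.26 log2 units. edgeR called 0 of the 10, where 19.2% of all genes were called, although 8 had an unadjusted p under 0.05, DESeq2 called 7 lower and limma called 0. Without Q140 F2, the library with the highest level in its group, edgeR called 8. It called 2 without Q20-cohort wild-type F4 and 1 without Q50-cohort wild-type F2. The 19.2% belongs to the edgeR fit of all libraries, and no share of all genes is given here for the other fits.

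The Q140 estimates against the mean of both wild-type groups were thus above 0 at 6 months and below 0 at 10 months. The reference mattered at 6 months, when the mean thalamus level was 3.60 in Q140 mice, 3.42 in Q20-cohort wild types and 1.85 in Q50-cohort wild types. At 10 months it was 2.32 in Q140 mice, 3.45 in Q20-cohort and 3.37 in Q50-cohort wild types. The difference between ages against the mean of both wild-type groups was tested over all 96 libraries, in a fit chosen after seeing the data. It was below 0 for all 10 genes, with a median of -2.37 log2 units. edgeR called Slc17a6 (-2.98 ± 0.82 SE, adjusted p = 0.0436), Lhx9 (-3.08 ± 0.84, adjusted p = 0.0425) and Lef1 (-1.30 ± 0.36, adjusted p = 0.0455), where 1.27% of 17670 genes were called. Without the libraries that stood apart 0 of the 10 were called, and 0 with the replicate number as a block. The difference was not tested against either wild-type group alone. For Q92 the difference between ages was called for 0 of the 10 genes by edgeR, with 0 at an unadjusted p under 0.05, where 0.0736% of all genes were called.

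Values of the libraries themselves moved with the level to a smaller extent. With group and sex means removed, the level had a correlation of 0.14 at 6 months and 0.26 at 10 months with the library total, and of -0.40 and -0.39 with the share of mitochondrial counts, over 48 libraries each. The L token in the library names held 10.1% of the sum of squares of the level at 6 months and 23.9% at 10 months. It had 8 values at 6 months and 10 at 10 months. Labels unrelated to the level would also hold a share, so these shares do not show a relation. The part of these in the group differences was not tested.

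Genes outside the list were fitted on the thalamus level with group and sex as terms, so that a slope compares libraries of 1 group. The slope is the change in a gene's log2 expression per unit of level, which is a doubling of the mean of the 10 genes. A list of 12 other thalamus genes did not enter the level. It was drawn up with earlier results of these libraries known, so its slopes are given as a description. All 12 were higher with the level at both ages, where 10.6% of 17329 genes were called higher at 6 months and 21.5% of 17275 at 10 months. Their median slope was 0.47 at 6 months and 0.54 at 10 months, against -0.0015 and -0.0043 for all genes tested. Among the wild types alone, with fewer libraries, 7 of the 12 were called higher at 6 months and 12 at 10 months. The median slopes there were 0.36 and 0.54. Plcb4, a phospholipase C that acts downstream of Gq-coupled receptors, had slopes of 0.43 and 0.54. Ramp3, a receptor activity-modifying protein, had 0.69 and 0.77, and Synpo2, an actin-binding protein, had 0.46 and 0.53. In the libraries, Plcb4 ran from 35.8 to 337 CPM at 10 months, with 37.6 CPM in the library of lowest level and 337 CPM in that of highest level. The library of lowest level was Q20-cohort wild-type F4 at 10 months and Q50-cohort wild-type M3 at 6 months. That of highest level was Q20 M4 at 10 months and Q20 F3 at 6 months. These are of different groups, so their values, here and below, are not a comparison within a group as the slopes are.

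Beyond the lists, the genes most like the thalamus level over the 96 libraries were Patj, with a correlation of 0.98, Plekhg1, Rab37, Epn3, Ptpn3, Ccdc136, Rasd1 and Shisal1, the last at 0.96. Patj, which encodes a scaffold protein of tight junctions and cell polarity, ran from 8.37 to 65.9 CPM at 6 months and from 10.54 to 148 CPM at 10 months. The steepest rises among genes called at both ages were those of Abhd12b, at 1.87 and 1.54, and Vipr2, at 1.08 and 1.12. Vipr2, a receptor for vasoactive intestinal peptide, ran from 0.407 CPM in Q140 M3 to 29.6 CPM at 10 months.

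Striatal projection neuron genes were lower where the thalamus genes were higher. Of 29 genes listed as shared by both kinds of projection neuron, 25 fell with the level at 6 months and 28 at 10 months. Of all genes, 10.6% and 23.9% were called lower. The 29 include Tac1, a direct pathway gene. The median slope was -0.099 at 6 months and -0.19 at 10 months. Over all genes the 5th and 95th percentiles of the slope were -0.091 and 0.13 at 6 months and -0.14 and 0.17 at 10 months. The mean log2 CPM of the 29 genes had a correlation of -0.70 with the level at 6 months (rho -0.68) and of -0.62 at 10 months (rho -0.72), over 48 libraries with group and sex means removed. Pcp4, which encodes a calmodulin-binding peptide and was singled out after its value was seen, was the exception at both ages, with slopes of 0.029 and 0.004. At 6 months Rgs4, Rgs2 and Spock3 also missed the threshold.

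**Figure D4:**
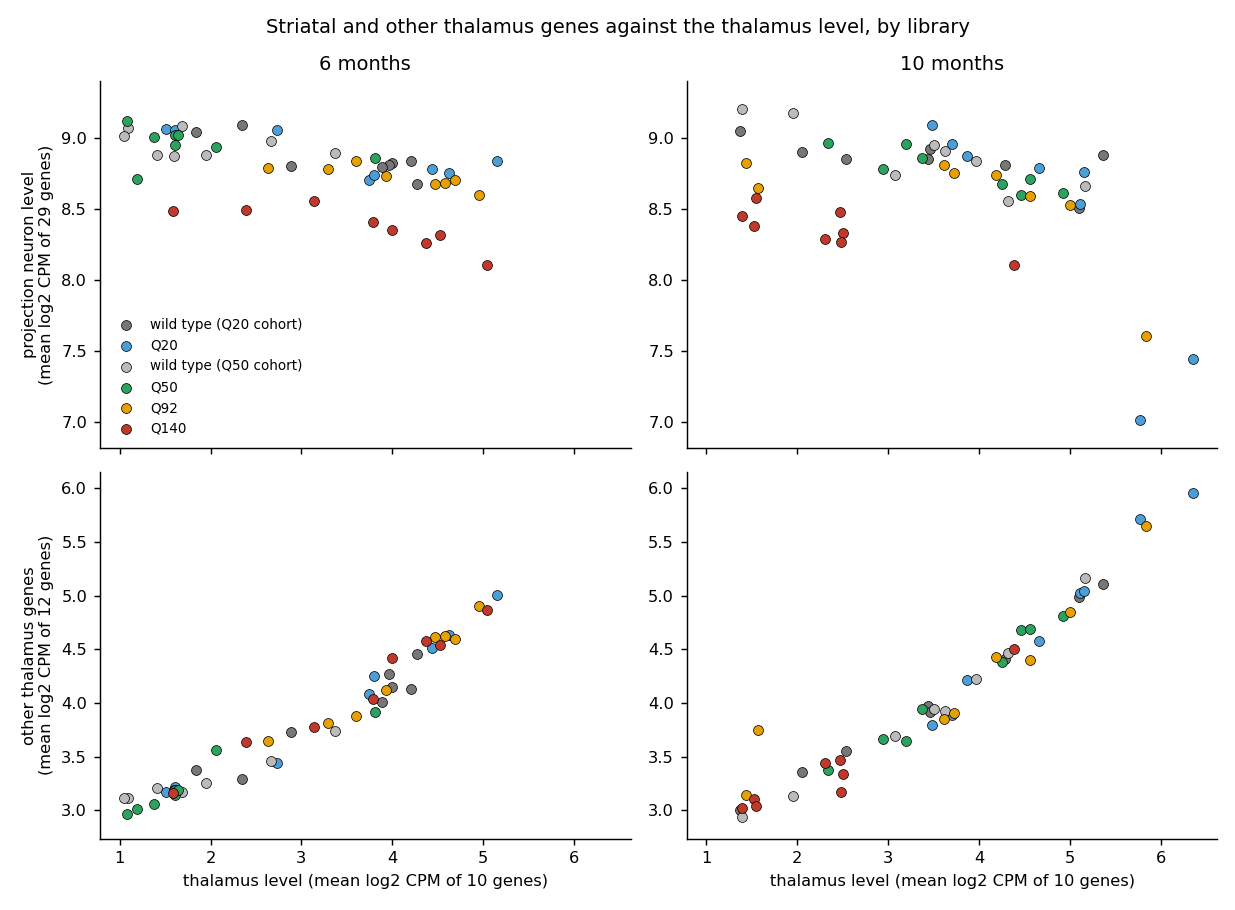
Mean log2 CPM of 29 shared striatal projection neuron genes (upper panels) and of 12 other thalamus genes (lower panels) against the thalamus level (horizontal axis, mean log2 CPM of 10 genes), with 1 point per library coloured by group, at 6 and 10 months. Points fall from left to right in the upper panels and rise in the lower ones, and at 10 months the 3 libraries of highest level, at 5.76 to 6.35, lie between 7.02 and 7.61 in the upper panel.

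Adcy5, the adenylyl cyclase through which dopamine and adenosine receptors act in striatal neurons, had slopes of -0.10 ± 0.017 SE at 6 months and -0.20 ± 0.038 at 10 months. Ptpn5, the striatal-enriched tyrosine phosphatase, had -0.090 and -0.16, and Meis2, a homeodomain transcription factor, had -0.081 and -0.17. Adcy5 ran from 335 to 1474 CPM at 10 months, with 1456 CPM in the library of lowest level and 395 CPM in that of highest level. Ptpn5 ran from 219.6 to 848 CPM at 10 months and was lowest in Q20 F4, which also stood apart for midbrain dopamine neuron genes.

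Genes of the indirect and of the direct pathway were lower as well. All 8 indirect pathway genes fell at both ages, with median slopes of -0.098 and -0.20. Drd2, the dopamine D2 receptor, had slopes of -0.12 and -0.22, Penk, the enkephalin precursor, had -0.090 and -0.22, and Oprd1, the delta opioid receptor, had -0.12 and -0.19. Around a median of 122 CPM, Drd2 at 10 months was 173 CPM in the library of lowest level, a Q20-cohort wild type. It was 38.6 CPM in that of highest level, a Q20 library. Penk at 10 months was 1252 CPM in the former and 292 CPM in the latter. At 6 months the same 2 ends were closer, at 154 and 122 CPM for Drd2 and 1229 and 978 CPM for Penk.

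Of 9 direct pathway genes 4 fell at 6 months and 7 at 10 months, with median slopes of -0.071 and -0.11. Drd1, the dopamine D1 receptor, had slopes of -0.11 and -0.22, which is 1.08-fold and 1.16-fold lower per doubling of the thalamus genes. Chrm4, the M4 muscarinic receptor, had -0.11 and -0.22, and Slc35d3, a nucleotide-sugar transporter family member, had -0.072 and -0.17. Drd1 at 10 months ran from 45.7 to 358 CPM, with 287 CPM in the library of lowest level and 75.5 CPM in that of highest level. At 6 months these values were 306 and 262 CPM.

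The 3 libraries of highest level at each age, named after the data were seen, weighed on the size of the slopes at 10 months. They were Q20 M4, Q92 F1 and Q20 F4 at 10 months, and without them the median slope of the 29 shared genes was -0.12, with 26 called lower. The median of the 8 indirect pathway genes was -0.13 with all 8 called, and that of the 9 direct pathway genes was -0.071 with 7 called. At 6 months it was -0.096 with 25 called. Without the libraries that stood apart, 25 and 28 of the shared genes were called, all 8 indirect pathway genes at both ages, and 5 and 7 direct pathway genes. Among the wild types alone, 16 libraries per age, 1 of the 29 was called lower at 6 months at a median slope of -0.10, and 24 at 10 months at a median of -0.13. In males alone 12 of the 29 were called lower at 6 months. Over all genes, too, fewer were called lower in wild types alone and in males alone, as given below with the alternatives. The shares of all genes in the full fits thus do not apply to these counts. No share is given here for the fits without the libraries of highest level or those that stood apart.

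**Figure D5:**
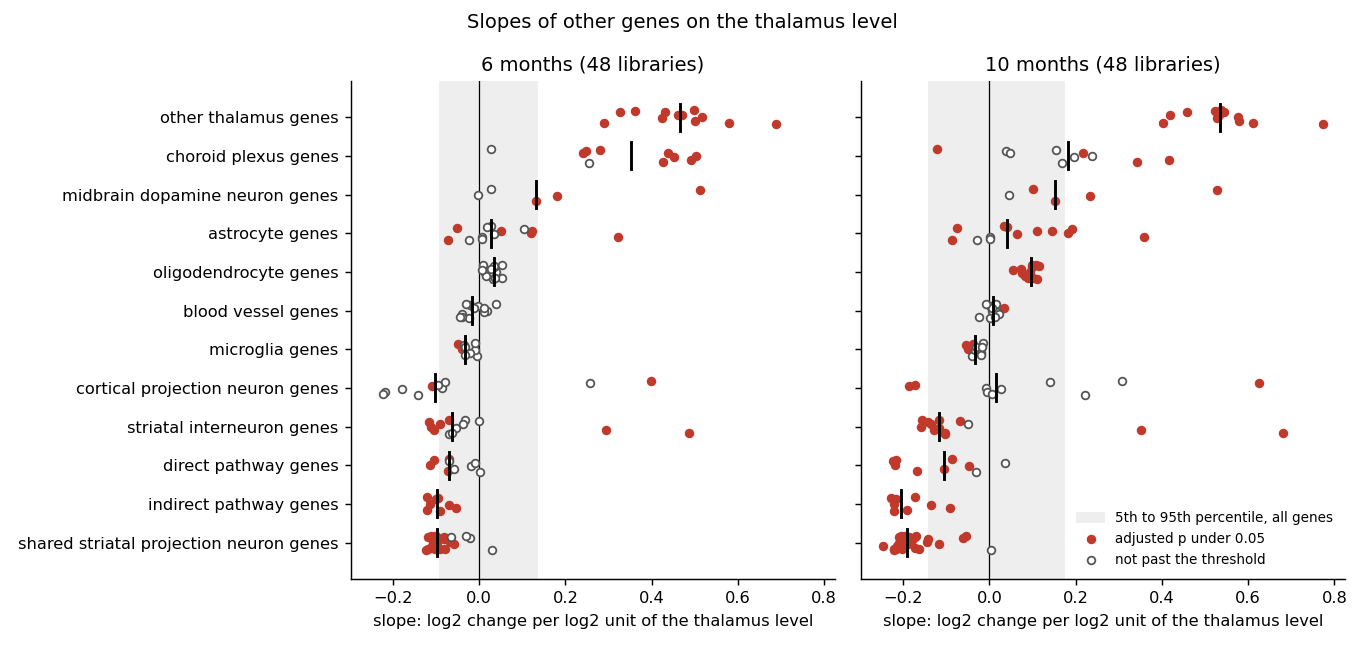
Slopes on the thalamus level (log2 expression per unit of level) of the genes of each list at 6 and 10 months; points are genes, red where the adjusted p of the edgeR fit is under 0.05 and open otherwise, bars are list medians, and the grey band runs from the 5th to the 95th percentile of all genes tested. Other thalamus genes lie above 0 and the striatal projection neuron, indirect and direct pathway genes lie mostly below 0, with medians down to -0.20.

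The steepest falls among genes called at both ages were those of Ankk1, Gm9754, Robo3, Gm11766, 1700003D09Rik, Ryr1, Ptprv, B3gnt2, Fgf3 and Kcng3. Ankk1, the neighbour of Drd2, had slopes of -0.16 and -0.29, and Robo3, an axon guidance receptor, had -0.20 and -0.22. Ryr1, a calcium release channel, had -0.15 and -0.25, and ran from 19.4 to 151 CPM at 10 months. The genes with the most negative correlations with the level over 96 libraries were less steep. Gnao1, the alpha subunit of the G protein Go, had a correlation of -0.75 at slopes of -0.057 and -0.071, and Dab1, an adaptor of reelin signalling, had -0.74 at -0.081 and -0.11.

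Other cell types were followed in the same fits, where 10.6% of all genes were called lower and 10.6% higher at 6 months. At 10 months 23.9% were called lower and 21.5% higher. Of 13 striatal interneuron genes, 5 fell at 6 months and 10 at 10 months, among them Nos1 (slopes -0.11 and -0.13) and Kit (-0.091 and -0.14), and 2 rose at both ages. Those 2 were Pvalb, with slopes of 0.29 and 0.35, and Cck, with 0.49 and 0.68, of which Cck was named after its value was seen. Of 12 oligodendrocyte genes edgeR called 0 at 6 months, with 0 at an unadjusted p under 0.05 and slopes from 0.0061 to 0.053, and all 12 rose at 10 months at a median slope of 0.097. These lists were not counted with DESeq2 or limma. Of 13 astrocyte genes 4 rose and 2 fell at 6 months, and 8 rose and 2 fell at 10 months. The 2 that fell were near the share of all genes at 6 months and below it at 10 months. Without the libraries that stood apart 6 astrocyte genes rose at 6 months. Without the 3 libraries of highest level, 9 oligodendrocyte genes rose at 10 months at a median of 0.064, and 6 astrocyte genes rose. Agt, which encodes angiotensinogen, rose with slopes of 0.32 and 0.36 and Aqp4, the astrocyte water channel, with 0.12 and 0.18, whereas Slc1a2, a glutamate transporter, fell with -0.072 and -0.086. Correlations with the level over 48 libraries were 0.57 and 0.73 for the mean of the astrocyte genes, 0.16 and 0.57 for oligodendrocyte genes, and 0.53 and 0.56 for hypothalamus genes. For choroid plexus genes they were 0.49 and 0.17, for midbrain dopamine neuron genes 0.40 and 0.35, and for habenula genes 0.17 and 0.24. Over the 44 libraries per age that did not stand apart they were 0.65 and 0.79 for astrocyte, 0.23 and 0.67 for oligodendrocyte, 0.51 and 0.60 for hypothalamus, 0.47 and 0.27 for choroid plexus, 0.36 and 0.48 for midbrain dopamine neuron and 0.19 and 0.29 for habenula genes. The part of these in the slopes of striatal genes was not tested.

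The 2 ages were compared gene by gene. Of the genes tested at both ages that fell with the level, 1660 were shared, which is 90.3% of those at 6 months and 40.2% of those at 10 months. Of those that rose, 1686 were shared, 91.8% and 45.7%. In 1 fit over 96 libraries edgeR called 0 genes, 0% of 17660, for a slope that differed between ages, with 2147 at an unadjusted p under 0.05. This difference was not fitted with DESeq2 or limma. The larger number of genes called at 10 months is thus not shown to reflect steeper slopes.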

How the data were processed

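mRNA of 96 striatal libraries was measured. The authors deposited expected counts per gene, of which 27.7% of non-zero values are fractional at a tolerance of 0.001, and FPKM values, which the authors normalised for gene length and library total. CASAVA 1.8.2 is named in the submitters' processing notes, while for the aligner, quantifier and build a name is not given in the sources used here. Symbols came from GENCODE M21, for 37607 of 39179 identifiers. No table column was left without a sample, and 0 pairs of libraries had identical counts.

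The 10 genes, the other gene lists and the rules were chosen with earlier results of these data known. Expected counts were rounded and fitted per age (48 libraries, 6 groups, sex as a term) with edgeR 4.0.16 (TMM, filterByExpr, robust quasi-likelihood F test, two-sided) in R 4.3.3, over 17339 genes at 6 months and 17285 at 10 months, and tested on simulated data. Slopes used group, sex and the thalamus level (log2 CPM, prior count 2). Outside the 10 genes, the text names the 10 steepest slopes each way among genes called at both ages whose average log2 CPM was 1 or more, the 3 genes of smallest larger p from each list, and the 8 highest and 8 lowest correlations over 96 libraries, and prints a choice of them. A value after ± is a standard error. No interval is given for single low counts, which carry counting error.

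Alternatives were RLE scaling, no filter, DESeq2 1.42.0, limma 3.58.1 on log2(FPKM + 1) or log2(FPKM + 0.1), single wild-type references, sexes alone, single groups or libraries left out, no group terms, wild types alone and a replicate block. Chosen after seeing the data were the liver and pituitary lists, a linear level, the L token as a term, leaving out libraries that stand apart or the 3 of highest level, and the difference between ages of Q92 and Q140. Promoter windows came from RefSeq on GRCm38.p6. Python 3.11.15 and matplotlib 3.10.9 made the figures.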

Additional observations from a re-analysis of the deposited data

Results flagged for a closer look

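Single libraries stood far above the other 7 of their group in 13 of 132 sets of a gene or the level within a group, by the gap to the nearest library over the range of the group. Chance alone flags about 1 in 20 such sets, and the 10 genes are correlated, so the sets are not independent. Q140 F2 at 10 months was high for the thalamus level (4.38, nearest other 2.50), Lef1 (log2 CPM 3.64), Ntng1 (5.84), Prkcd (7.59), Rgs16 (4.52) and Tcf7l2 (4.90). Q50 M4 at 6 months was high for the level (3.80, nearest other 2.06), Lef1 (3.36), Ntng1 (5.34), Prkcd (6.81), Shox2 (3.55, nearest other -0.20) and Tnnt1 (3.88). Q50-cohort wild-type M1 at 6 months was high for Tnnt1 (3.15, nearest other 1.76).

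The Q140 difference from the mean of both wild-type groups passed the test of a change between ages for 3 genes in the edgeR fit over 96 libraries, chosen after seeing the data. The change from 6 to 10 months was -2.98 log2 units for Slc17a6, -3.08 for Lhx9 and -1.30 for Lef1. None of the 3 was called with the replicate block or without the libraries that stand apart.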

How the results depend on the processing

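The calls of the 10 genes at 6 months changed most. For Q92, 6 genes were called, and 0 against Q20-cohort wild types alone, 2 with no filter, 2 and 2 with limma on log2(FPKM + 1) and log2(FPKM + 0.1), 0 with limma and no filter, 0 in females, 0 in males and 1 without the libraries that stand apart. For Q140, 4 were called, and 0 against Q20-cohort and 9 against Q50-cohort wild types alone, 1 with no filter, 1, 1 and 1 with limma, 0 in females, 0 in males and 2 without the libraries that stand apart. Leaving out 1 library gave 0 to 9 for Q92. It gave 0 without Q92 F2, F3, F4 or M1, 2 without Q20-cohort wild-type F4 or Q50-cohort wild-type F3, and 3 without Q20-cohort F1 or M4 or Q50-cohort F2, F4, M2, M3 or M4. It gave 0 to 8 for Q140: 0 without Q140 M1, 1 without F1, F3 or M3, 7 without F4 and 8 without M2. Among wild types it gave 2 without Q20-cohort F4 or M4 or Q50-cohort F2, F4, M2 or M3, 7 without Q20-cohort F3 and 8 without Q50-cohort M1. The cause was not tested. DESeq2 called 1 gene between the wild-type cohorts at 6 months. The share of all genes called is not given here for these alternatives.

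At 10 months the Q140 count of 0 became 7 with DESeq2, 1 in males and 0 to 8 without 1 library, and the Q20 count of 0 became 6 with the L token as a term. The 3 genes of the Q140 age difference became 0 with the replicate block and 0 without the libraries that stand apart. For these alternatives too the share of all genes called is not given here.

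Genes lower with the level at 6 months, 1839, became 1082 with limma on log2(FPKM + 1), 2822 with no group terms, 11 in wild types alone, 1144 without Q20 mice, 860 in females and 375 in males. Genes higher, 1837, became 2789 with no group terms, 164 in wild types, 1212 in females and 597 in males. At 10 months, 4128 lower became 1587 in wild types, 1980 in females and 1799 in males, and 3716 higher became 1895, 2336 and 2325. Fewer libraries enter these fits. Of the 29 projection neuron genes, 25 lower at 6 months became 1 in wild types and 12 in males. The slope differed between ages for 1 gene without the libraries that stand apart. The median correlation between the 10 genes stayed between 0.91 and 0.93.

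Labels number replicates alike in each group, and the deviations of same-numbered libraries had a mean correlation of 0.33 against 0.31 for other pairs at 6 months and 0.28 against 0.27 at 10 months. Single pairs went down to -0.073 and -0.503, so the libraries are taken to share only a number. With the replicate block 9 genes were called for Q92 and 3 for Q140 at 6 months, and 1534 and 3934 genes were lower with the level at 6 and 10 months.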

Other observations

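Of all genes, 10.6% were called higher with the thalamus level at 6 months and 21.5% at 10 months. Choroid plexus genes mark the epithelium that makes cerebrospinal fluid. They rose with the level in 8 of 10 cases at 6 months and in 3 at 10 months, near that share. At 10 months 1 fell. Without the libraries that stand apart 5 rose at 6 months, and without the 3 libraries of highest level 1 rose at 10 months. Of the hypothalamus genes tested, 3 of 6 rose and 1 fell at 6 months, and 4 of 8 rose at 10 months. The gene that fell was Pomc (slope -0.60), named after its value was seen, and 3 libraries of that age stood apart for pituitary genes. Without the libraries that stand apart 2 of 7 hypothalamus genes rose and 0 fell by edgeR at 6 months, and 3 of 8 rose at 10 months. Microglia genes had slopes below 0 in 10 of 10 cases at both ages. Of these, 3 passed the threshold at each age (2 at 6 months without the libraries that stand apart). Of all genes, 10.6% were called lower at 6 months and 23.9% at 10 months. The 3 microglia genes called at 10 months were thus near the share of all genes.

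The habenula, which borders the thalamus, had a mean level whose correlation with the thalamus level was 0.17 at 6 months and 0.24 at 10 months (0.19 and 0.29 without the libraries that stand apart). In Q50 F1 at 10 months, where habenula genes had a mean log2 CPM of 3.15 against a median of 0.60 over that age, Gbx2 and Lhx9 were the highest of their group, whereas the other 8 thalamus genes were highest in other libraries. Q92 F1 at 10 months had a thalamus level of 5.84 and a habenula level of 1.13.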
